A study of Mus musculus with 9 samples.

Results

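The 52 mitotic cell cycle genes described here were taken by symbol from the 55401 genes counted in embryonic mouse forebrain. They were chosen by name, with no threshold on a measured value. They comprise 16 genes of S phase, 5 genes of the passage from G1 to S phase and 31 genes of mitosis. All 52 passed the filter on low counts, with 459 to 44862 reads in an embryo, as did 17818 genes of the whole table. The study compared wild-type embryos, Npas+/+ in the labels (WT, n = 5, embryos 5, 15, 16, 41 and 43), with embryos heterozygous for *Npas3*, Npas+/- in the labels (HET, n = 4, embryos 5, 6, 7 and 24). *Npas3* encodes a neuronal PAS domain transcription factor, and the embryos carried the constitutive deletion in every cell, so that no Cre or transgene limits it to a cell type. All 9 were female and between embryonic days 16 and 17, with the day of each embryo, its litter and its dissection not given in the sources used here. Poly(A) RNA of the bulk forebrain was sequenced, which gave 42640218 to 62830060 counted reads in WT and 43011519 to 51588211 in HET embryos.

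The labels name astrocytes as the cell type, but the tissue was whole forebrain. Of 8 astrocyte markers, 7 passed the filter on low counts, all but *S100b*, and their sum lay between 464 and 640.3 CPM in WT and between 495 and 588 CPM in HET embryos, where CPM are the counts scaled to equal library size. Most of it came from *Aldoc*, *Slc1a2*, *Sox9* and *Gja1*, of which radial glia also express *Sox9* and *Gja1*. *Gfap*, an intermediate filament gene of astrocytes, lay between 4.23 and 12.5 CPM over the 9 embryos, and *Aqp4*, their water channel, between 0.163 and 2.02 CPM. The values below therefore belong to the mixed tissue. In bulk RNA, fewer cycling cells and less cell cycle RNA per cycling cell cannot be told apart.

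At this age the ventricular and subventricular zones still hold dividing radial glia and intermediate progenitors, while most cells of the cortical plate are neurons that have left the cell cycle. S phase genes are driven mainly by E2F factors once cyclin D and cyclin E kinases have inactivated the retinoblastoma protein. Genes of G2 and mitosis are held down by the DREAM complex in quiescent cells and are switched on later, by the MuvB complex with B-Myb and FoxM1. Their promoters often carry a short element named the cell cycle genes homology region (CHR), with CCAAT boxes that bind NF-Y at a set distance from it.

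Promoter sequences were read from the RefSeq table of build GRCm38.p6, which held a window of 300 bases, from 250 before to 50 after the transcription start, for 42 of the 52 genes. Where a gene had several windows, as *Mcm7*, *Uhrf1*, *Bub3* and *Prc1* did, only the first listed was used. The genes without an entry were *Mcm4*, *Gmnn*, *Ccnd1*, *Ccnd2*, *Ccne2*, *Ccna2*, *Cdc25c*, *Aurkb*, *Kif20a* and *Tpx2*. The 4 promoters below are examples from the mitosis genes (*Cdk1*, *Top2a*) and the S phase genes (*Mcm5*, *Mcm6*). Each shows the 250 bases before the start, 5′ to 3′ on the strand of the gene. Capitals mark every match, on either strand, to the CHR (TTTGAA), to CCAAT, or to one of 4 forms of the E2F site (TTTCGCGC, TTTGGCGC, TTTCCCGC and TTTGCCGC). The positions are chr10:69352913-69353162 on the minus strand for *Cdk1*, chr11:99024190-99024439 on the minus strand for *Top2a*, chr8:75109259-75109508 on the plus strand for *Mcm5* and chr1:128359706-128359955 on the minus strand for *Mcm6*.
Cdk1: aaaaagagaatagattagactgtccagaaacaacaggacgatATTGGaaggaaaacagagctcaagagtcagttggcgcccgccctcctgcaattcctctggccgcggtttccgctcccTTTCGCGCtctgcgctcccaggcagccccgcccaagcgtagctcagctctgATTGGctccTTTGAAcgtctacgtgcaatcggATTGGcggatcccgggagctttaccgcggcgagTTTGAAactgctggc
Top2a: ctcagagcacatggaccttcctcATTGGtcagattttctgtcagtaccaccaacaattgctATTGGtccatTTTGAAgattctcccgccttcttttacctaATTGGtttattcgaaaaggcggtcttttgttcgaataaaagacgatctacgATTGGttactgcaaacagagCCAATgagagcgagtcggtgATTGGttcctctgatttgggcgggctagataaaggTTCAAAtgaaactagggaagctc
Mcm5: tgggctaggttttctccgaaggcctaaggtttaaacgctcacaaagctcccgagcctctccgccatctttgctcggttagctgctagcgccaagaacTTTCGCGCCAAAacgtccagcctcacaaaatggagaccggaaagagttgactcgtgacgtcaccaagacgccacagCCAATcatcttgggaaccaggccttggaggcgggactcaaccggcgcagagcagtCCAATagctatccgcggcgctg
Mcm6: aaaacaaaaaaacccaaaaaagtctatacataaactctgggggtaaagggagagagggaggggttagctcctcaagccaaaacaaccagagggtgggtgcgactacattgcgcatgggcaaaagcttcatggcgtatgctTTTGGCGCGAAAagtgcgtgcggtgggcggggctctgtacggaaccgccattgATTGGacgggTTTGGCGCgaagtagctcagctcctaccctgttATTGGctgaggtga

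The *Cdk1* and *Top2a* stretches hold CHR and CCAAT matches, and the *Mcm5* and *Mcm6* stretches hold E2F and CCAAT matches. The same split ran through the other promoters. The CHR letters were present in 18 of 26 mitosis promoters (69.2%) and in 1 of 14 S phase promoters (7.14%), that of *Mcm2*, against 18.1% of the 27025 promoters in the table. E2F letters were present in 8 of 14 S phase promoters (57.1%) and in 1 of 26 mitosis promoters (3.85%), that of *Cdk1*, against 2.32% of all promoters. CCAAT was present in 21 of 26 mitosis promoters (80.8%) and 10 of 14 S phase promoters (71.4%), against 37.9% of all. CHR and CCAAT stood together in 17 of 26 mitosis promoters (65.4%), 1 of 14 S phase promoters (7.14%) and 7.12% of all. The E-box CANNTG, which bHLH proteins bind, was present in 19 of 26 mitosis promoters (73.1%), 7 of 14 S phase promoters (50%) and 72.1% of all. Neither of the 2 G1/S windows in the table, of *Ccne1* and *E2f1*, held a CHR, CCAAT or E2F match in the forms searched. The *E2f1* window (chr2:154569377-154569676) lay inside the annotated gene (chr2:154559407-154569892), so sequence before the annotated end of that gene was not searched. Among CHR, CCAAT and E2F matches, those of different motifs overlapped in *Mcm7* alone, and with the E-box counted this was so in 6 promoters (also *Pola1*, *Uhrf1*, *Top2a*, *Prc1* and *Ube2c*). These matches describe letters in a window, and no binding was measured.

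Levels were compared between genes per length, as CPM per kilobase (kb) of exon in WT embryos. *Ccnd2*, which encodes the D-type cyclin of neural progenitors, stood highest at 84.3 CPM per kb, and *Cdc6*, which loads the MCM helicase onto origins, stood lowest at 3.71. Below *Ccnd2* came *Pcna*, the sliding clamp of DNA polymerase, at 54.7, *Mcm7*, a subunit of the replicative helicase, at 43.5, *Top2a*, the topoisomerase of mitotic chromosomes, at 42.9, and *Mki67*, the coat protein of mitotic chromosomes used as a proliferation marker, at 36.3. The median of the 52 genes was 13.5 CPM per kb, against 3.92 over the tested genes. These are levels of a mixed tissue in which an unknown share of cells was cycling. Reads could be shared with other genes for some members, since the handling of strand in counting is not given in the sources used here. Another gene overlapped over 5% of the exonic bases of 10 members, among them *Kif20a* (29.3%), *Ccnd1* (23.4%) and *Ube2c* (22.8%). Over 5% of 50-base words were shared with other sequence for 7 members, among them *Ccnb1* (23.4%), *Pcna* (19.1%) and *Mcm7* (18.1%). Values for these genes are therefore less certain. The percentages are shares of sequence, and their effect on the counts was not tested.

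**Figure D1:**
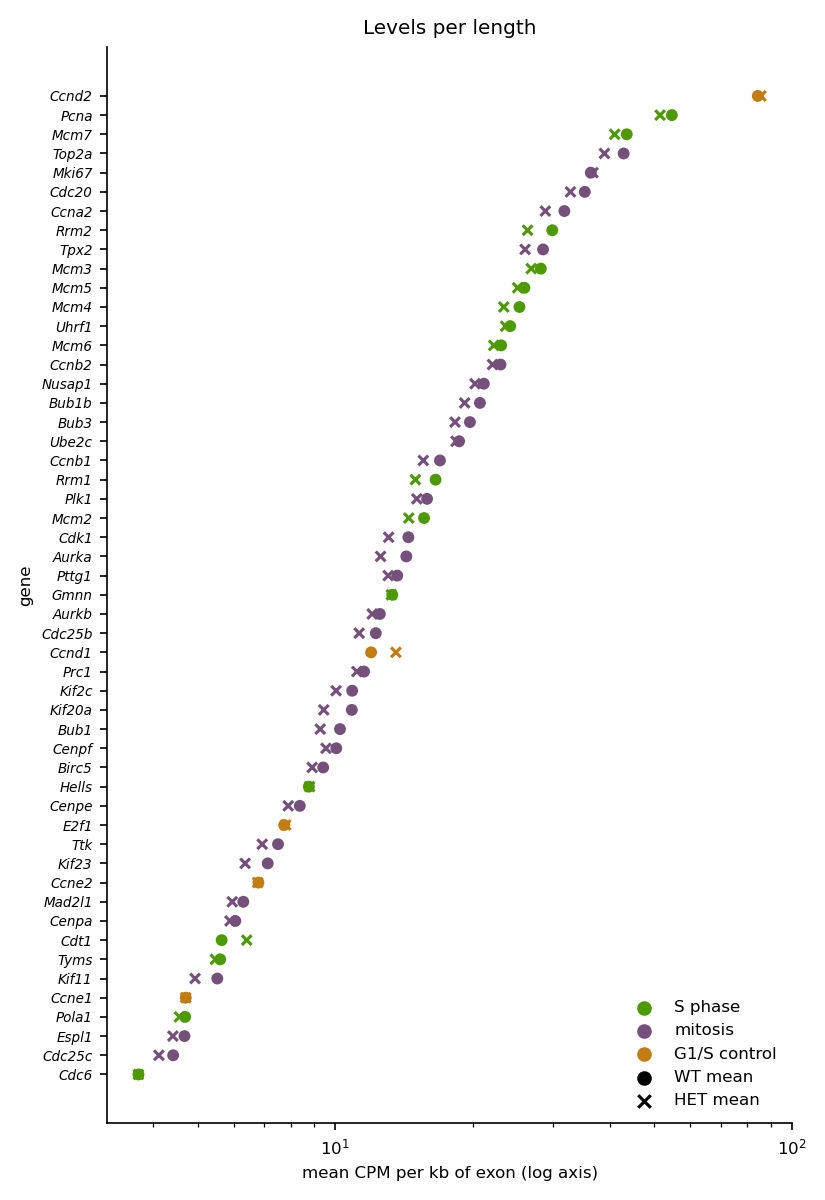
Mean CPM per kb of exon for each of the 52 genes in WT and HET embryos, on a log axis with genes ordered by level. *Ccnd2* lies at the top (84.3 in WT) and *Cdc6* at the bottom (3.71 in WT), and the WT and HET points of a gene lie close together.

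The spread between embryos was wide within both genotypes. For *Mki67* (chr7:135689784-135716361), the WT embryos 5, 15, 16, 41 and 43 measured 477, 326, 253, 341 and 430.2 CPM, and the HET embryos 5, 6, 7 and 24 measured 449, 412, 293 and 323 CPM. All values below follow this order of embryos. WT 5 was highest and WT 16 lowest, so that both extremes of the 9 embryos were WT. For *Top2a* (chr11:98992943-99024189), WT embryos measured 486, 331, 361, 345 and 409 CPM and HET embryos 434, 400.1, 271 and 297 CPM. Here WT 5 was again highest, HET 7 was lowest, and the 2 groups overlapped.

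*Cdk1* (chr10:69335146-69352938), the kinase that drives entry into mitosis, measured 81.9, 59.7, 80.9, 64.3 and 70.2 CPM in WT and 75.6, 73.4, 48.8 and 60.7 CPM in HET embryos. *Ccnb1* (chr13:100778650-100786570), its cyclin partner, measured 85.8, 59.4, 75.8, 62.9 and 74.0 CPM in WT and 82.2, 74.2, 49.4 and 57.4 CPM in HET embryos. The kinase and its cyclin ranked the embryos almost alike, with WT 5 at the top and HET 7 at the bottom of both. *Mcm2* (chr6:88883474-88898780), another helicase subunit, measured 133, 85.3, 107, 98.6 and 121 CPM in WT and 129, 109, 79.2 and 85.9 CPM in HET embryos. *Pcna* (chr2:132249162-132253314) measured 137, 112, 149.8, 119 and 139 CPM in WT and 146, 135, 105 and 107 CPM in HET embryos. These S phase genes were lowest in HET 7 too, while *Pcna* was highest in WT 16 and *Mcm2* in WT 5.

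Counted over the whole set, WT 5 had the highest value for 39 of the 52 genes and HET 5 for 10, while WT 16 had it for *Gmnn*, *Pcna* and *Bub3*. HET 7 had the lowest value for 44 of the 52. Over all tested genes, WT 5 was highest for 14% and HET 7 lowest for 13.5%. WT 5 and HET 5 were both among the 3 highest embryos for 46 of the 52, and HET 7 and WT 15 both among the 4 lowest for 49. The median of the 52 log2 CPM values, each taken against the mean of the WT embryos, was 0.30 in WT 5, 0.19 in HET 5, -0.22 in WT 15, -0.20 in HET 24 and -0.41 in HET 7. The other 4 embryos lay between -0.14 and 0.07. Over all tested genes the same medians lay between -0.01 and 0.02.

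**Figure D2:**
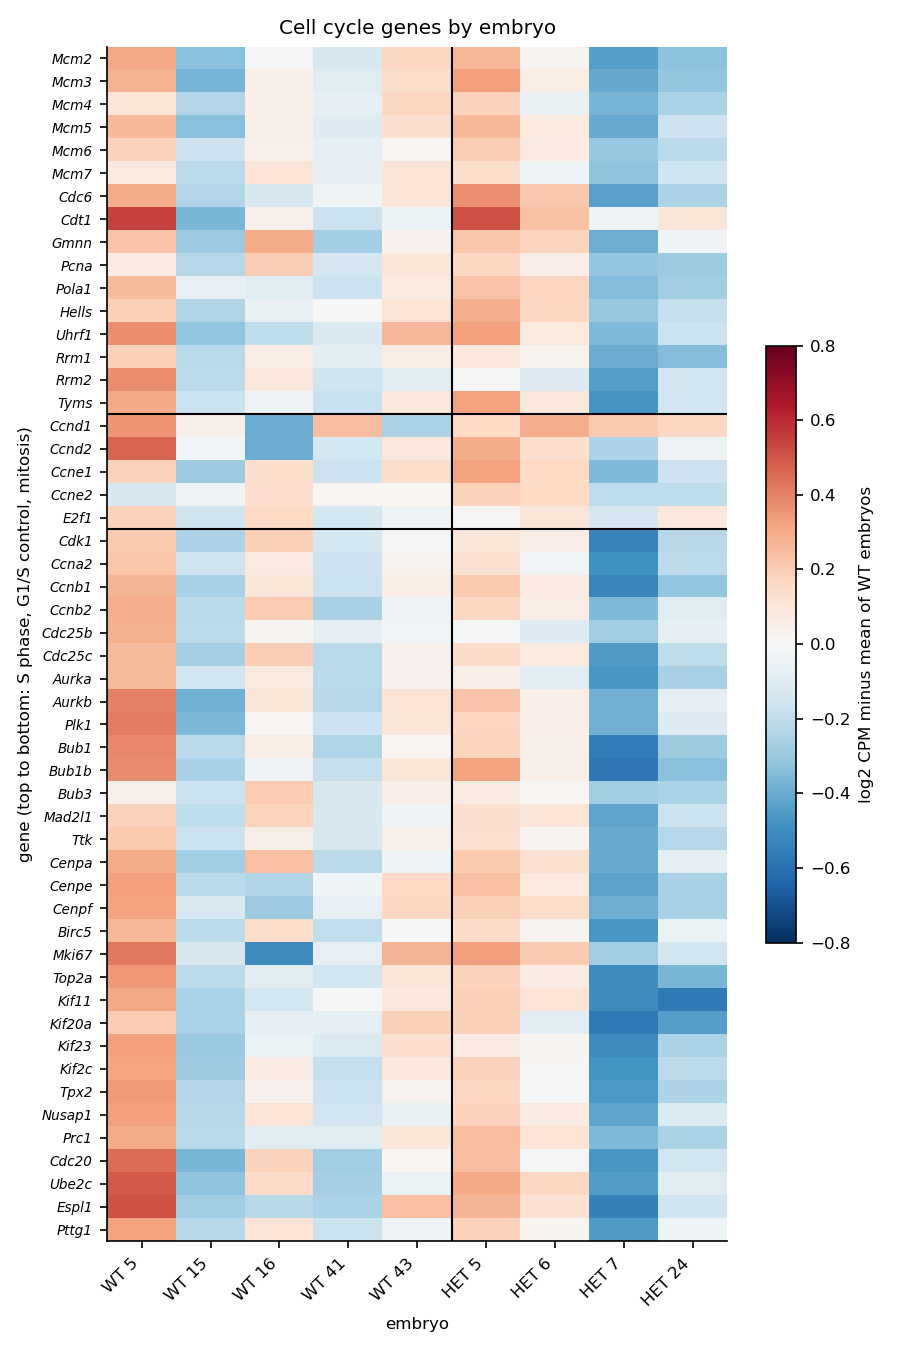
Colour map of log2 CPM minus the mean of the WT embryos, with the 52 genes in rows (S phase, G1/S control, mitosis from top to bottom) and the 9 embryos in columns, WT left of the line and HET right. The WT 5 and HET 5 columns are high through most rows and the HET 7 column is low, with medians of 0.30, 0.19 and -0.41.

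From the lowest to the highest embryo, the 52 genes spanned a median of 1.67-fold, against 1.33-fold for the 11566 tested genes at 5 CPM or more. The narrowest was *E2f1*, the transcription factor of G1/S genes, at 1.27-fold, and the widest was *Espl1*, the separase that cuts cohesin at anaphase, at 2.08-fold. The coefficient of variation within WT had a median of 15.8% over the 52 genes and 9.49% over the tested genes at 5 CPM or more, and within HET of 18.3% and 7.92%. The difference between the genotype means held a median of 3.85% of the variance of log2 CPM over the 52 genes, against 7.68% over all tested genes.

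HET embryos were compared with WT embryos by edgeR's quasi-likelihood test over all tested genes, to learn whether the loss of 1 *Npas3* copy changed these genes. None of the 52 genes passed an adjusted p of 0.05, where 25 of 17818 genes (0.14%) did, and adjusted p for the 52 ranged from 0.911 to 0.9997. At an unadjusted p under 0.05 there were also 0 of the 52, against 5.42% of all tested genes. DESeq2 called 0 of the 52 at an adjusted p of 0.05, where it called 0.483% of all tested genes. For none of the 52 did all HET values lie above, or all lie below, every WT value, where this was so for 1.85% of tested genes. *Npas3* itself measured 36.2 ± 4.18 CPM in WT (SD, n = 5) and 29.5 ± 3.09 CPM in HET (SD, n = 4), a log2 fold change of -0.30 (SE 0.10) with an unadjusted p of 0.0134 and an adjusted p of 0.877 by edgeR. HET 7 (34.1 CPM) lay inside the WT range for it. P-values measure the spread between these embryos.

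By mean, 45 of the 52 lay below WT in HET and 7 above it, with a median log2 fold change of -0.08, against -0.005 over all tested genes. The 7 with higher means were *Cdt1*, *Hells*, *Mki67*, *Ccnd1*, *Ccnd2*, *Ccne1* and *E2f1*. This balance depended on single embryos. Without HET 7, 21 genes were lower and the median was 0.02, and without WT 5, 26 genes were lower and the median was -0.0002. Other omissions enlarged the shift, to 49 lower genes and a median of -0.17 without HET 5. With 1 embryo left out, the median ranged from -0.17 to 0.02 and the lower genes from 21 to 50. All 52 intervals of 95% for the log2 fold change held 0 and lay within -1 and 1, and 46 of them lay within -0.5 and 0.5. Differences of 2-fold therefore lay outside the interval for every gene, and smaller ones lay within it for many.

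The 5 genes with the lowest unadjusted p were *Aurka*, *Rrm2*, *Kif20a*, *Ccnd1* and *Rrm1*. *Aurka*, a kinase of centrosomes and the spindle, measured 42.96, 32.4, 38.0, 30.995 and 36.9 CPM in WT and 37.3, 34.0, 26.1 and 30.0 CPM in HET embryos (log2 fold change -0.19, SE 0.12, unadjusted p = 0.151 by edgeR). *Kif20a*, a kinesin of cytokinesis, measured 54.0, 39.4, 44.6, 44.6 and 53.4 CPM in WT and 53.4, 44.2, 31.7 and 34.5 CPM in HET embryos (-0.20, SE 0.15, unadjusted p = 0.208 by edgeR). In both genes the groups overlapped, with HET 7 lowest and WT 5 highest.

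*Rrm1* and *Rrm2* encode the large and small subunits of ribonucleotide reductase, which makes deoxynucleotides for replication. *Rrm2* measured 106, 70.9, 87.3, 73.3 and 76.6 CPM in WT and 82.0, 76.4, 60.4 and 73.8 CPM in HET embryos (-0.18, SE 0.13). *Rrm1* measured 208, 157, 189, 171 and 189.7 CPM in WT and 193, 186, 138 and 143 CPM in HET embryos (-0.15, SE 0.12). HET 7 was lowest for both subunits, and the third gene of this role, *Tyms*, thymidylate synthase, had a log2 fold change of -0.04.

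*Ccnd1*, the D-type cyclin that many growth signals induce, measured 70.8, 57.1, 42.1, 65.8 and 46.5 CPM in WT and 61.9, 67.9, 64.0 and 62.2 CPM in HET embryos (0.18, SE 0.14). The HET embryos lay close together (64.0 ± 2.75 CPM, SD, n = 4), inside a wide WT range (56.5 ± 12.3 CPM, SD, n = 5) with WT 16 and WT 43 low. *Ccnd2* measured 1075, 767, 591, 707 and 825 CPM in WT and 955, 855, 656 and 757 CPM in HET embryos (0.02, SE 0.16), and its lowest embryo was WT 16 as well. The 2 highest embryos were WT 5 and HET 5 for *Ccnd2*, and WT 5 and HET 6 for *Ccnd1*. *Ccne1*, *Ccne2* and *E2f1*, the other genes of the G1/S passage, had log2 fold changes of 0.0003, -0.006 and 0.01.

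Grouped by role, the 9 genes of origin licensing and the helicase (*Mcm2* to *Mcm7*, *Cdc6*, *Cdt1* and its inhibitor *Gmnn*) had a median log2 fold change of -0.05, with 8 lower in HET by mean. The gene with a higher mean was *Cdt1* at 0.18 (SE 0.18), with 25.3, 13.4, 17.8, 15.4 and 16.7 CPM in WT and 24.7, 20.4, 16.8 and 18.5 CPM in HET embryos. WT 5 and HET 5 were again the highest for *Cdt1*, and WT 15 was the lowest. The 4 genes of synthesis and chromatin copying (*Pcna*, *Pola1*, *Hells* and *Uhrf1*) had a median of -0.04.

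Among mitosis genes, 30 of 31 had a lower mean in HET, and the exception was *Mki67* at 0.02 (SE 0.18), whose sign turned to negative when WT 15, WT 16, WT 41, HET 5 or HET 6 was left out. The 9 cyclins and kinases with their CDC25 phosphatases had a median of -0.12, with all 9 lower. The 5 genes of the spindle checkpoint (*Bub1*, *Bub1b*, *Bub3*, *Mad2l1* and *Ttk*), which holds anaphase back until chromosomes are attached, had a median of -0.11. The 6 genes of kinetochores and chromosome structure, *Mki67* and *Top2a* among them, had a median of -0.08. The 7 genes of the spindle and cytokinesis had a median of -0.13, and the 4 genes of anaphase (*Cdc20*, *Ube2c*, *Espl1*, *Pttg1*) of -0.07. Over all mitosis genes the median was -0.10 and over S phase genes -0.05. Without HET 7 these were 0.005 and 0.04, and without HET 5 they were -0.20 and -0.17. None of these roles held a gene past an unadjusted p of 0.05.

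**Figure D3:**
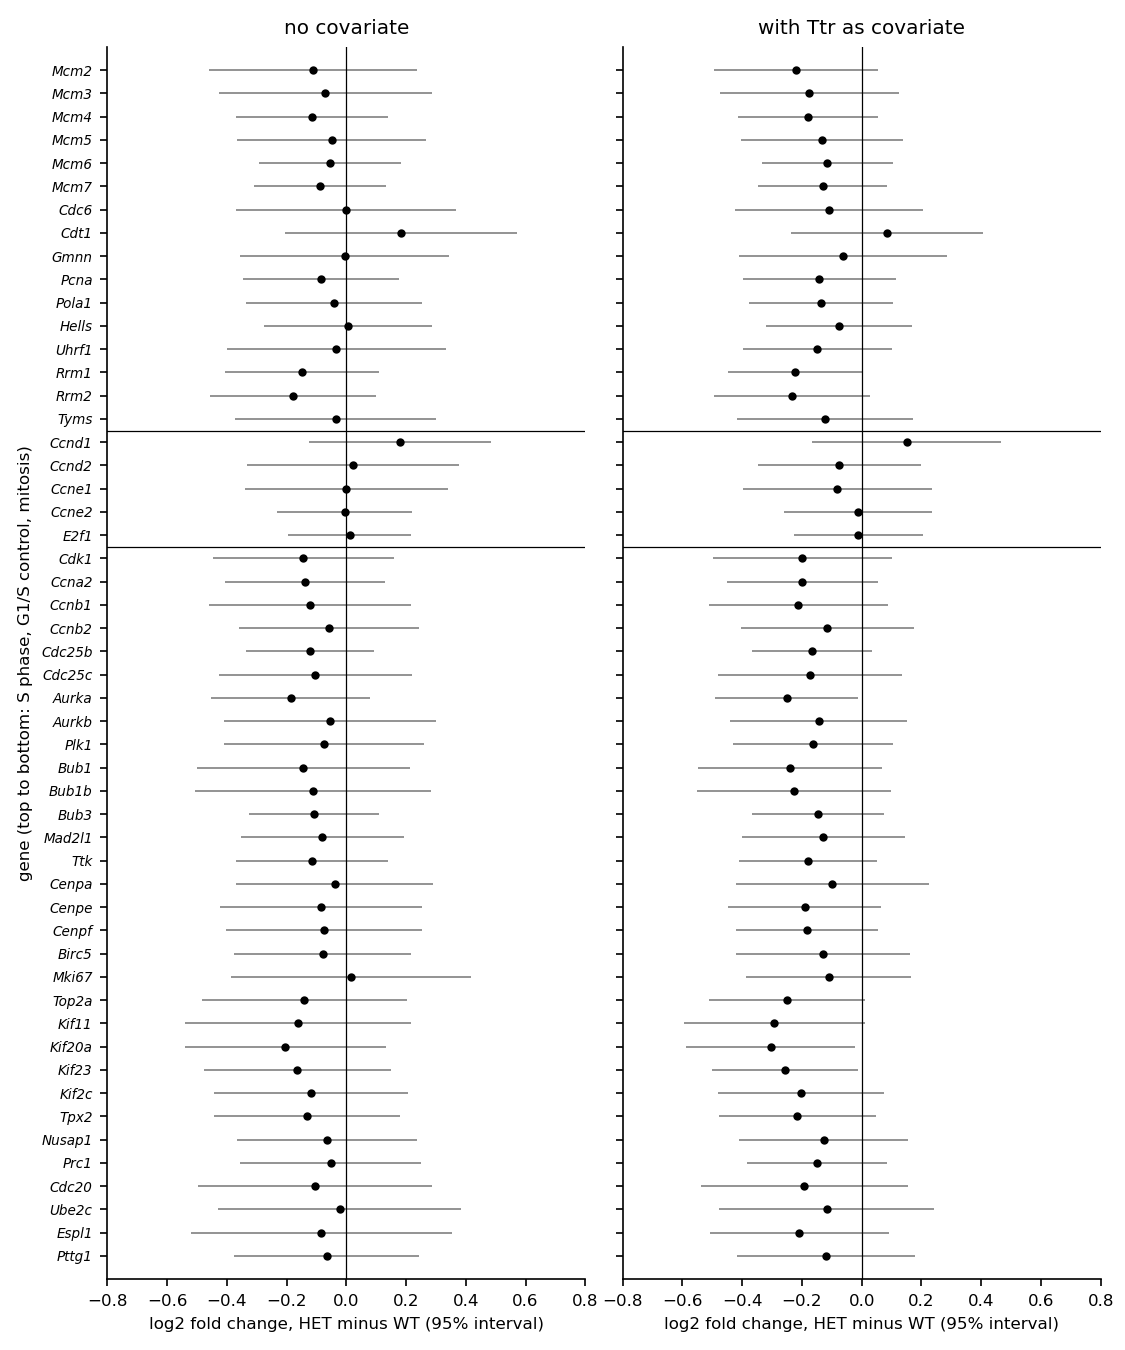
Log2 fold change, HET minus WT, with its 95% interval (bars) for each of the 52 genes, without (left) and with (right) *Ttr* as a covariate. All 52 intervals hold 0 on the left, and 49 of 52 hold it on the right, where 50 points lie left of the line.

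Choroid plexus RNA was unequal among the embryos. *Ttr*, the transthyretin gene of the choroid plexus, measured 0.770, 2536, 2126.5, 2631 and 2.14 CPM in WT embryos and 5.78, 2.47, 11.7 and 467 CPM in HET embryos. The 8 choroid plexus markers summed to 18.04 to 2866 CPM in WT and to 27.5 to 526 CPM in HET embryos, and 1 of them, *Kl*, was at 0 in WT 5. A second fit therefore held the centred log2 CPM of *Ttr* beside the genotype. In it, 0 of the 52 genes passed an adjusted p of 0.05 for the genotype, where 0.14% of all genes did. By edgeR, *Kif20a* (-0.31, unadjusted p = 0.0363), *Kif23*, a kinesin of the central spindle (-0.26, unadjusted p = 0.0410), and *Aurka* (-0.25, unadjusted p = 0.0418) had an unadjusted p under 0.05. These were 3 of 52 genes, against 5.44% of all tested genes, and the lowest adjusted p of the 52 was 0.903. The number was 7 with no filter on low counts, 6 by DESeq2 and 6 with the mean of the 8 choroid plexus markers in place of *Ttr*, where 5.15%, 5.3% and 5.72% of all genes had such a p. It also depended on single embryos. Without HET 5, 20 of the 52 genes were lower in HET at an unadjusted p under 0.05, against 9.45% of all genes. There were none without WT 16, HET 7 or HET 24, 2 without WT 15, 1 without WT 41, 1 without HET 6 and 4 without WT 43. Without WT 5 there was 1, *Ccnd1*, which was higher in HET (0.35). With any embryo but HET 5 left out, 4.21% to 6.42% of all genes had such a p. With *Ttr* in the fit, the value was lower in HET for 50 of the 52, with a median log2 fold change of -0.15 against -0.003 over all tested genes. The exceptions were *Ccnd1* at 0.15 and *Cdt1* at 0.08. S phase genes had a median of -0.14 and mitosis genes of -0.18. The median over the 52 genes ranged from -0.23 without HET 5 to -0.07 without HET 7. In the 5 embryos with *Ttr* under 100 CPM (2 WT, 3 HET), with no covariate, it was -0.20.

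The *Ttr* term of the same fit was negative for all 52 genes, with a median of -0.03 log2 units per doubling of *Ttr*, against 0.0007 over all tested genes. None of the 52 passed an adjusted p of 0.05 by edgeR, where 2.21% of all tested genes did. At an unadjusted p under 0.05 there were 26 of 52, against 15.1% of all tested genes, namely 10 of 16 S phase genes, 15 of 31 mitosis genes and 1 of 5 G1/S genes. That number was 5 without WT 5, 13 without WT 15, 15 without HET 24 and 42 without WT 16. As shares of the 52 these were 9.62%, 25%, 28.8% and 80.8%, against 8.43%, 12.5%, 14.1% and 16% of all genes in the same fits. Without WT 5, the share of the 52 was thus near that of all genes. DESeq2 called 6 of the 52 at an adjusted p of 0.05, which were *Uhrf1*, *Cenpe*, *Cenpf*, *Mki67*, *Top2a* and *Espl1*, where it called 4.85% of all tested genes.

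The 3 genes with the lowest p for *Ttr* came from different steps of the cycle. *Uhrf1*, which keeps DNA methylation through replication, measured 131, 81.5, 87.7, 93.3 and 122 CPM in WT and 127, 107, 79.3 and 89.9 CPM in HET embryos, with a slope of -0.05 (SE 0.01, adjusted p = 0.0767 by edgeR). *Mki67* had a slope of -0.05 (SE 0.01, adjusted p = 0.0819 by edgeR). *Espl1* measured 56.9, 32.9, 34.2, 33.5 and 47.2 CPM in WT and 48.1, 43.2, 27.4 and 35.7 CPM in HET embryos, with a slope of -0.06 (SE 0.01, adjusted p = 0.0878 by edgeR). For *Uhrf1* and *Espl1*, the embryos 15, 16 and 41 with high *Ttr* were all below the WT embryos 5 and 43. HET 7 did not follow that order, since it was the lowest embryo for both genes with 11.7 CPM of *Ttr*.

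S phase and mitosis genes moved together. As the mean log2 CPM of each list, S phase genes measured 6.10 ± 0.19 in WT (SD, n = 5) and 6.04 ± 0.27 in HET (SD, n = 4), and mitosis genes 5.95 ± 0.21 and 5.84 ± 0.28. The S phase mean minus the mitosis mean was 0.094, 0.144, 0.159, 0.196 and 0.183 in WT embryos and 0.220, 0.182, 0.240 and 0.166 in HET embryos. Both the lowest embryo, WT 5, and the highest, HET 7, stood at the ends of the overall level. The means were 0.155 in WT and 0.202 in HET, a difference of 0.047 on the log2 scale, and the groups overlapped. The difference lay between 0.032 (without WT 5) and 0.076 (embryos with low *Ttr*) over the alternatives run.

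The balance also differed between the 2 embryos with the highest overall levels. HET 5 was above WT 5 for 9 of 16 S phase genes and for 1 of 31 mitosis genes. HET 5 had the highest value of all embryos for *Mcm3*, *Mcm4*, *Mcm5*, *Mcm6*, *Mcm7*, *Cdc6*, *Hells* and *Tyms* of S phase and for *Ccne1* and *Ccne2*, while WT 5 had it for 30 of 31 mitosis genes. These embryos were picked out after their values were seen, and each is 1 library.

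**Figure D4:**
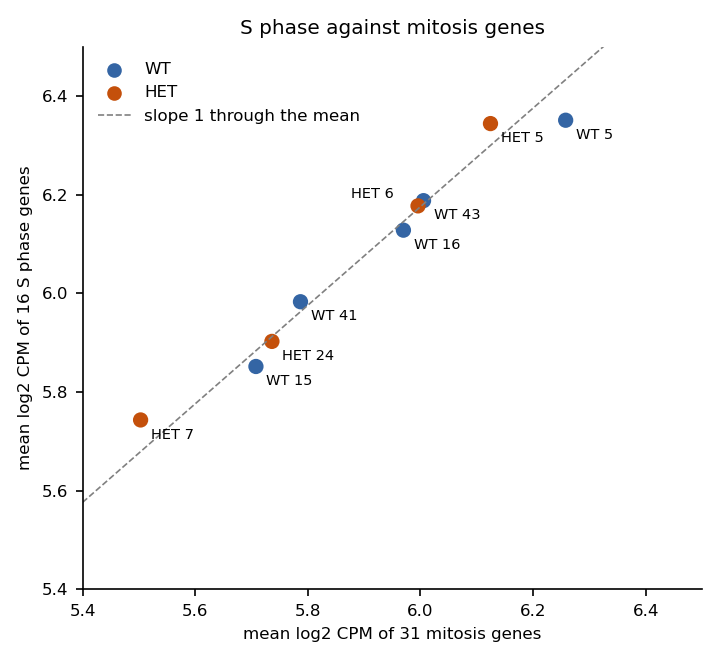
Mean log2 CPM of the 16 S phase genes (vertical axis) against that of the 31 mitosis genes (horizontal axis), with 1 point for each of the 9 embryos coloured by genotype. The points rise together from HET 7 (5.503 and 5.743 for mitosis and S phase) to WT 5 (6.26 and 6.35), with WT and HET embryos mixed along the way.

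Markers of progenitors and neurons were read beside these values. The 12 neural progenitor markers, such as *Sox2*, *Pax6* and *Hes5*, summed to 3384, 2371, 2768, 2570 and 3063 CPM in WT and to 3287, 2850, 2299 and 2499.6 CPM in HET embryos. The 52 cell cycle genes summed to 6016, 4259, 4604, 4446 and 5155 CPM in WT and to 5621, 5107, 3757 and 4241 CPM in HET embryos. Both sums put the embryos in the same order but for WT 15 and HET 24, which changed places near the bottom. The order was not the same by mean log2 CPM, in which each gene weighs equally. There the progenitor markers were lowest in WT 15 (6.29), WT 16 (6.30), HET 7 (6.31) and HET 24 (6.32), while the cell cycle genes were lowest in HET 7 (5.58) and higher in WT 16 (5.98). The 12 markers of postmitotic neurons, such as *Tubb3* and *Dcx*, summed to 6859 to 7399 CPM in WT and to 6687 to 7797 CPM in HET embryos. HET 7, lowest for cell cycle genes, had the most neuron marker RNA (7797 CPM), and HET 5 the least (6687 CPM). The part of tissue makeup, age or dissection in these differences was not tested.

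**Figure D5:**
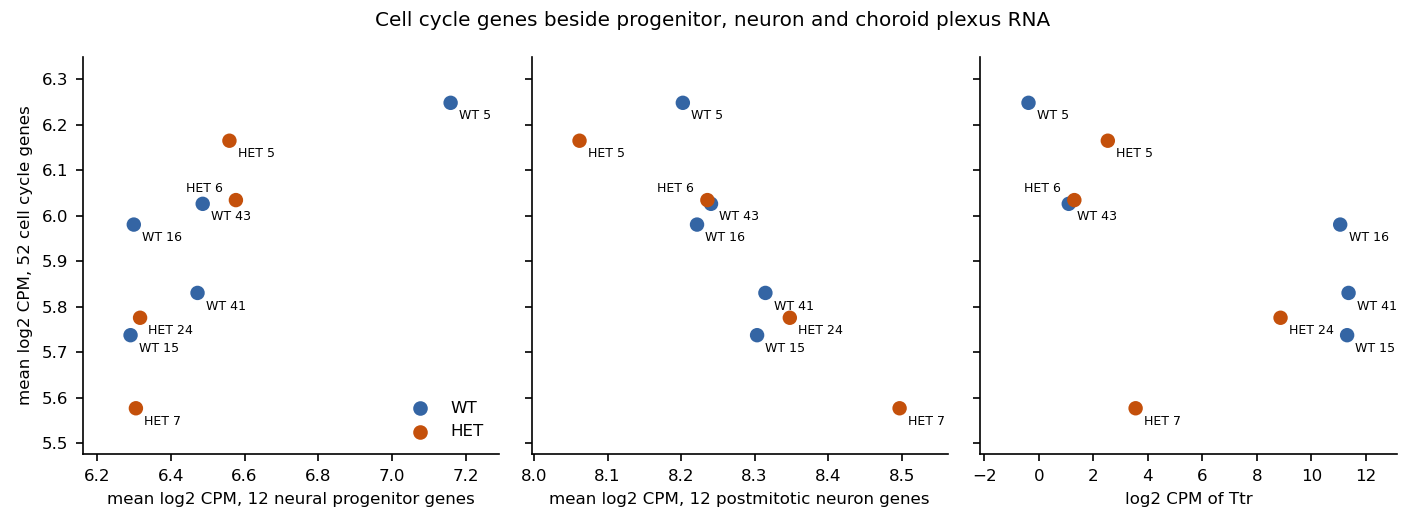
Mean log2 CPM of the 52 cell cycle genes (vertical axis), with 1 point for each embryo. The horizontal axes are the mean log2 CPM of progenitor markers, that of neuron markers, and the log2 CPM of *Ttr* (one panel each). WT 5 stands at the upper right for progenitor markers (7.16) and HET 7 at the lower right for neuron markers (8.50).

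Of 128 further cell cycle genes, 40 of S phase, 62 of mitosis and 26 of cell cycle control, 0 passed an adjusted p of 0.05 by edgeR for HET against WT, and 2 had an unadjusted p under 0.05, against 5.42% of all tested genes. *Cdkn1c*, the CDK inhibitor p57 that progenitors express as they leave the cycle, measured 93.4, 61.4, 70.3, 64.8 and 51.5 CPM in WT and 53.1, 54.7, 50.2 and 55.5 CPM in HET embryos (log2 fold change -0.35, SE 0.14, unadjusted p = 0.0282 by edgeR). *Cdk6*, the partner kinase of D-type cyclins, measured 77.1, 58.3, 46.1, 67.5 and 64.3 CPM in WT and 76.1, 88.0, 70.7 and 73.7 CPM in HET embryos (0.30, SE 0.13, unadjusted p = 0.0398 by edgeR). Neither gene separated the groups, since WT 43 reached the HET values for *Cdkn1c* and WT 5 for *Cdk6*. The next lowest p was that of *Cenpt*, a kinetochore gene, at 0.0687 with a log2 fold change of -0.16. By mean, 103 of the 128 lay below WT, with a median log2 fold change of -0.06. The mitosis genes among them had a median of -0.11 (55 of 62 lower), the S phase genes of -0.03 (35 of 40 lower), and the control genes were split 13 to 13. With *Ttr* in the fit, 116 of the 128 were lower and 7 had an unadjusted p under 0.05, a share near the 5.44% of all tested genes.

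Within the set, 1 embryo also differed by transcript length. In WT 16 the deviation of the 52 genes from the median of the other embryos, in log2 CPM, fell with exonic length (Spearman's rho -0.55). This rho is a description over genes that are no replicates of one another. The median deviation was 0.15 for the 26 shorter and -0.003 for the 26 longer genes. In the other embryos rho lay between -0.38 and 0.43. Of the 3 genes lowest in WT 16, *Mki67* has 10.1 kb of exon, *Ccnd2* 9.41 kb and *Ccnd1* 4.71 kb, where the median of the 52 was 4.36 kb. The genes with the most exonic sequence, *Cenpf* (15.4 kb) and *Rrm1* (11.01 kb), were lowest in HET 7. The part of RNA quality in this was not tested.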

How the data were processed

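Bulk forebrain RNA of 5 WT and 4 HET embryos was measured by RNA-seq. The deposited values are counts of reads per gene, which the authors made without normalization from 1 read of each pair, aligned to GRCm38.p6 with STAR 2.7.9a and counted with featureCounts on GENCODE annotation. The depth had a median of 45845845 counts, and counts cover counting error only, since PCR duplicates cannot be told from molecules.

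Groups follow the genotype label of each sample. In R 4.3.3, genes were filtered with filterByExpr of edgeR 4.0.16 (minimum count 10), scaled by TMM and tested over all 9 samples by edgeR's quasi-likelihood test, alone or with the centred log2 CPM of *Ttr* (prior count 2), with Benjamini-Hochberg adjustment over 17818 genes and a threshold of 0.05. Common biological variation (BCV) came to 16.8%, or 13.6% with *Ttr*. CPM are TMM-scaled, and gene lengths were exonic lengths of GENCODE on GRCm38. The tests were tested on simulated data. DESeq2 1.42.0, other scaling and filters, another covariate and leaving out each embryo were alternatives.

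The 52 genes, the further lists and the markers were chosen with earlier results of these data known. Named in detail were 8 members fixed by name, the 5 with the lowest p for genotype, the 3 with the lowest p for *Ttr*, the highest and lowest per kb, and 3 further cell cycle genes with the lowest p. *Cdt1*, *Kif23*, *Tyms* and the highest and lowest embryos were picked out after their values were seen. Of the further list, 1 symbol was not matched in the table.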

Additional observations from a re-analysis of the deposited data

Results flagged for a closer look

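WT 5 stood apart from the other WT embryos in 2 values by Dixon's test for a group of 5. The mean log2 CPM of the 5 G1/S control genes was 5.85 in WT 5, where the other WT embryos lay between 5.55 and 5.63. The mean log2 CPM of the 12 neural progenitor markers was 7.16 in WT 5, where the others lay between 6.29 and 6.49. In all, 118 groups of values were tested in this way, of which chance would flag about 5.9.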

How the results depend on the processing

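None of the 52 genes was called for HET against WT by edgeR or DESeq2, with or without *Ttr*, under any alternative run. In the fit without *Ttr*, at an unadjusted p under 0.05, 1 gene was reached without WT 5 (*Cdt1*, 0.35, unadjusted p = 0.0256 by edgeR) and 1 without HET 5 (*Kif20a*, -0.36, unadjusted p = 0.0239 by edgeR). Each was 1.92% of the 52, below the 9.97% (without WT 5) and 7.23% (without HET 5) of all genes. Over all genes, 25 were called, against 86 by DESeq2, 15 in the 5 embryos with *Ttr* under 100 CPM, and 14 to 23 when 1 embryo was left out (16 without HET 5, 14 without HET 6, 16 without HET 7). For the *Ttr* term, 0 of the 52 genes were called, against 4 with no filter on low counts, 6 by DESeq2, 1 with the 8-marker score in place of *Ttr*, and 0 to 8 when 1 embryo was left out (8 without HET 7, 1 without HET 5). As shares of the 52 these were 7.69%, 11.5%, 1.92%, 15.4% and 1.92%, where the same tests called 2.23%, 4.85%, 2.88%, 3.76% and 2.46% of all genes. In these 5 embryos *Mki67* and *Ccnd2* had log2 fold changes of -0.24 and -0.21, the reverse of their sign over 9 embryos. With 1 embryo left out, that of *Mki67* lay between -0.0927 (without HET 5) and 0.13 and that of *Ccnd2* between -0.0695 (without HET 5) and 0.16. The sign of *Mki67* turned without WT 15, WT 16, WT 41, HET 5 or HET 6, and that of *Ccnd2* without WT 16, WT 41, HET 5 or HET 6. The cause was not tested. No paired analysis was possible because the litter of each embryo is not given in the sources used here. In all, 11 recomputed log2 fold changes of single genes changed sign, and 18 counts moved by over 1.5 times or from 0. Of 84 recomputed medians of log2 fold change, 5 changed sign, all with no covariate. These were all 3 medians without HET 7 (members 0.02, S phase 0.04, mitosis 0.005) and the S phase median without WT 5 (0.01) and without HET 24 (0.002). The intervals of single genes reached from -0.54 to 0.57 at most.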
